A study of Mus musculus with 7 samples.

Results

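Genes of the transforming growth factor beta (TGF-β) and bone morphogenetic protein (BMP) pathways were followed in tibial growth plates of B6 × CAST F1 mice. The set holds 45 genes, named by their known function as ligands, latent binding proteins, receptors, antagonists, Smads or transcriptional targets, and all 45 were found among the 43346 genes in the deposited counts.

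The samples were 7 male F1 mice from the cross C57BL/6J × CAST/EiJ, 21 d of age, with no treatment, and all of them belong to 1 condition. C57BL/6J (B6) is the reference laboratory strain and CAST/EiJ (CAST) is an inbred strain derived from wild mice. Every autosomal gene is present as 1 B6 and 1 CAST copy in these mice, so the question is whether both copies of a gene gave the same amount of RNA within the same cells. The labels give 1 cross for all mice, so the strain of an allele and the parent it came from cannot be told apart. Proximal and distal tibial growth plates were taken from each mouse as 1 sample. As this is bulk tissue, fewer cells of a type and less RNA per cell cannot be told apart in the levels given below.

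The growth plate is the cartilage near the end of a long bone in which chondrocytes divide, enlarge and are replaced by bone. TGF-β is secreted in a latent form, bound through its propeptide to latent TGF-β binding proteins of the matrix, and after release it signals through type I and type II receptor kinases to Smad2 and Smad3. Most BMPs and some GDFs signal through related receptors to Smad1, Smad5 and Smad9, both branches use Smad4, and Smad6 and Smad7 inhibit them. BMP signalling promotes chondrocyte proliferation and differentiation in the growth plate, TGF-β restrains terminal differentiation, and the Id genes are standard targets of BMP-activated Smads.

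The deposited values are estimated counts, in which an expectation-maximization fit shares out every read that matches more than 1 allele or gene. Total counts per mouse ran from 14098019 in mouse 7 to 37849667 in mouse 5, with a median of 27603769, and the 45 genes held 0.216% to 0.261% of them. Their share was 0.256% or more in mice 1, 2 and 3 and 0.227% or less in mice 4, 5, 7 and 8. These totals are larger than the average number of read pairs in the labels. Read ends and lanes were processed separately, so a fragment may be counted more than once and counting errors based on these values may be too small. Cartilage markers were abundant in every mouse, with Col2a1 at 39183 to 80625 and Acan at 6532 to 11648 CPM, counts scaled to a common library size. Markers of bone, marrow, muscle and vessels were present too, among them Col1a1 at 32400 to 65530 CPM, so the samples were not chondrocytes alone.

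A difference between alleles was tested for all 20229 genes with a count in every mouse, by edgeR's likelihood-ratio test, and a gene was called at a false discovery rate (FDR) under 0.20 over all tested genes. All 45 pathway genes were tested, and 44 of them reached 10 counts in each mouse. The alleles differed for 13 of the 45, or 28.9%, against 34.6% of all tested genes. The CAST allele was higher in 9 called genes, or 20% of the 45, against 16.4% of all tested genes, and the B6 allele in 4, or 8.89% of the 45, against 18.3%. In either direction together, the share of called genes was no higher than in this background. All 45 genes lie on autosomes, whereas 19287 of the 20229 tested genes do. X-linked genes, of which a male has a single copy, can add calls with B6 higher to the background. This limit holds for every share of all tested genes given here, and shares over autosomal genes alone are not given. When only autosomal genes were fitted, 11 of the 45 were called, 7 with the CAST and 4 with the B6 allele higher. The median log2 fold change, CAST over B6, was 0.07 over the 45 genes and 0.02 over all tested genes. The median size of the change, regardless of sign, was 0.17 and 0.22, and it was 0.21 over autosomal tested genes. At an FDR under 0.05, 6 of the 45 genes remained, Gdf10, Tgfb1 and Acvr2b with the B6 allele higher and Ltbp4, Id4 and Tgfbi with the CAST allele higher.

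Both alleles of a mouse come from the same library, and a fit with the mouse as a replicate block called 20 of the 45 genes (44.4%), against 45.5% of all tested genes. These were the 13 genes called without the block and Bmp3, Bmp4, Bmp1, Tgfb2, Tgfbr3, Smad3 and Smad6. With edgeR's quasi-likelihood test in place of the likelihood-ratio test, the blocked fit called 19. FDRs with the block given below are from the likelihood-ratio test unless stated. The quasi-likelihood test gave a larger FDR for each of the 20 genes. It gave 3.36e-05 for Tgfb3, 0.00208 for Smad3, 0.00227 for Ltbp1, 0.00564 for Id1 and 0.0100 for Tgfbr3. For Bmp3, Smad6, Tgfb2, Acvr2b and Bmp4 it gave 0.0131, 0.0190, 0.0278, 0.155 and 0.156. The same allele was higher in all 7 mice for 14 genes (31.1%), 10 of them with CAST and 4 with B6 higher, against 24.4% of all tested genes in either direction. For such genes, exchanging the signs of the 7 log2 ratios in every way always gives the smallest possible P-value (exact permutation, two-sided). That value was 0.0156, or 0.0635 after adjustment over all tested genes, and it is no further evidence for the 14. All 14 were called with the mouse as a block and 9 of them without it. Only 4 genes had a total that was divided with another gene in every mouse, namely Acvr2a, Bmp5, Ltbp2 and Tgfb3. Those of Ltbp1 and Ltbp3 were divided in 6 mice, and totals were whole numbers in every mouse for 28 genes.

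**Figure D1:**
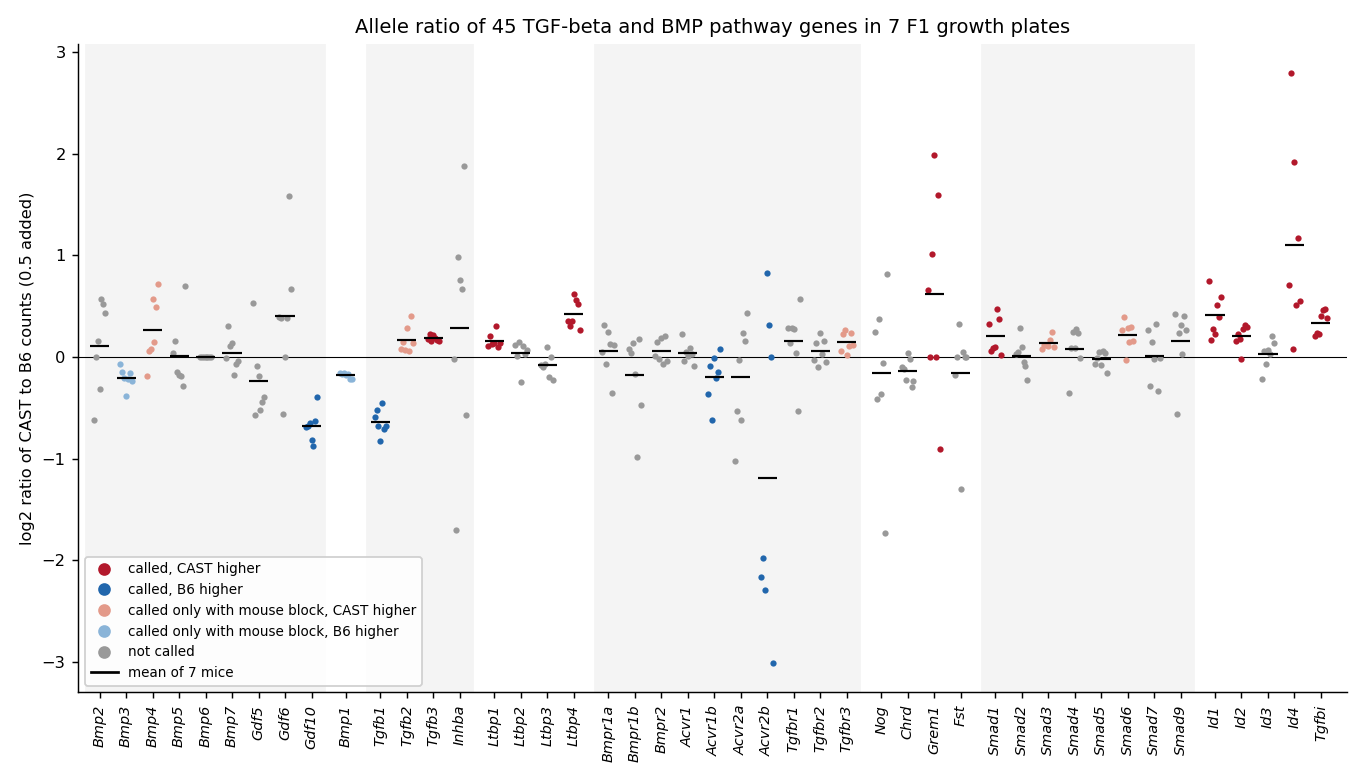
Log2 ratio of the CAST count to the B6 count, after adding 0.5 to both, for the 45 genes, with 1 point per mouse, black bars for the mean of 7 mice, and shading that separates the functional groups. Of the 13 called genes, Gdf10, Tgfb1, Acvr1b and Acvr2b have the B6 allele higher, and the points of Gdf10, Tgfb1, Bmp1 and Tgfb3 lie close together while those of Inhba, Acvr2b, Grem1 and Id4 spread widely.

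The 6 genes with an FDR under 0.05 are shown here by the bases that precede their RefSeq start, without any part that overlaps an annotated exon, as this stretch usually holds part of a gene's promoter. The sequences are those of the B6 reference (RefSeq, GRCm38.p6), each read 5′ to 3′ on the strand of its gene, and the CAST bases were not analysed here. Capitals mark GTCT or its reverse complement AGAC, the core of a Smad-binding element, and GGCGCC, a GC-rich element bound by BMP-activated Smads. The windows are Gdf10 at chr14:33923337-33923586, Tgfb1 at chr7:25686752-25687001, Ltbp4 at chr7:27337693-27337862, Acvr2b at chr9:119401928-119402117, Id4 at chr13:48260866-48261115 and Tgfbi at chr13:56609336-56609522, with Ltbp4 on the minus strand and the others on the plus strand. The RefSeq start of Id4 lies upstream of its GENCODE start, so the Id4 window ends before the coordinates given for that gene below.
Gdf10: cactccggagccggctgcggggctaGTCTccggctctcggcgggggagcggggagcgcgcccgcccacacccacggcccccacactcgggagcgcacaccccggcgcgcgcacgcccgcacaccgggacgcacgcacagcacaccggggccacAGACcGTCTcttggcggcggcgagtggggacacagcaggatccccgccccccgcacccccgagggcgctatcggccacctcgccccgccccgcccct
Tgfb1: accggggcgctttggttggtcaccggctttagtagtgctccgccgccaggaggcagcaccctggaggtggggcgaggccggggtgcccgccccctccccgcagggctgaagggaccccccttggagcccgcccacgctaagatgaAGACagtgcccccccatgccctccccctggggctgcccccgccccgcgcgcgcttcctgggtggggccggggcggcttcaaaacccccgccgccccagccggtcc
Ltbp4: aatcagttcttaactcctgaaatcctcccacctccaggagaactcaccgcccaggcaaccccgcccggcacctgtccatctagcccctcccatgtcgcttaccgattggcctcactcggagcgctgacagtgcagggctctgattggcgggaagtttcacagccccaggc
Acvr2b: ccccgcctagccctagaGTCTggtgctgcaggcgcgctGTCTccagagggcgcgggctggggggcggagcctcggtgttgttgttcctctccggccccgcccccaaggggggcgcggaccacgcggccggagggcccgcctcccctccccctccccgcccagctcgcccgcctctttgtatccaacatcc
Id4: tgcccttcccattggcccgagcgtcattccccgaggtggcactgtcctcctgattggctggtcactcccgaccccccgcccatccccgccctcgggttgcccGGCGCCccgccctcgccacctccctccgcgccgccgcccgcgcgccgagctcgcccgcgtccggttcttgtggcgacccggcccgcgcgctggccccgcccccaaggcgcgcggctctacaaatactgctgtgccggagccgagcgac
Tgfbi: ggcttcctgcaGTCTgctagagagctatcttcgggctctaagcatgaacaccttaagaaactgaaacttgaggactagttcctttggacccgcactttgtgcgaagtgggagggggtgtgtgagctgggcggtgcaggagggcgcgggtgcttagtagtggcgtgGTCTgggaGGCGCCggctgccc

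The Gdf10 window held 3 matches to GTCT or AGAC, those of Acvr2b and Tgfbi 2 each and that of Tgfb1 1, while none was found in the windows of Ltbp4 and Id4. GGCGCC occurred once before Id4 and once before Tgfbi. A start-site entry was found for 31 of the 45 genes. In the 250 bases before the start, GTCT or AGAC was present in 25 of these 31 (80.7%) and in 83.0% of 27025 promoters. GGCGCC was present in 9 of the 31 (29.0%) and in 9.54% of all promoters, and the 8-letter palindrome GTCTAGAC in none of the 31 and in 0.174% of all. GGCGCC holds only G and C, and the windows printed above are 59.4% to 78.8% GC. Promoters were not matched for base composition, and its part in the share of GGCGCC was not tested. The windows of Ltbp4, Acvr2b and Tgfbi are shorter than 250 bases, because an annotated exon lies further upstream, so these shares do not apply to them as printed. A match is a run of letters and says nothing about binding, and Id genes other than Id4 have no window here.

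Among the BMP and GDF ligands, Gdf10 alone was called. Gdf10 (chr14:33923587-33937983, GRCm38/mm10), also known as BMP3B, is a BMP3-related ligand. Its B6 allele had 367 to 1028 counts with a median of 731, and its CAST allele had 238 to 559 with a median of 456. The B6 allele was higher in all 7 mice, with log2 ratios from -0.88 in mouse 5 to -0.40 in mouse 8. On average 441 ± 112 counts came from CAST and 712 ± 209 from B6 (SD, n = 7 mice), a log2 fold change of -0.66 (FDR 1.02e-07, edgeR's likelihood-ratio test), and 38.3% of the gene's counts were from CAST.

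Bmp3 (chr5:98854415-98884396), the closest relative of Gdf10 and a ligand known to oppose osteogenic BMPs, also had more B6 than CAST counts in every mouse. Its log2 ratios had a lowest value of -0.39 in mouse 4, a median of -0.21 and a highest value of -0.07 in mouse 1, and its log2 fold change of -0.17 was called only with the mouse as a block (FDR 0.00129, against 0.373 without it, both from edgeR). Bmp4, an osteogenic ligand, had 98.3 ± 18.5 CAST and 85.0 ± 30.5 B6 counts (SD, n = 7) with CAST higher in 6 of 7 mice, and it too was called only with the block (FDR 0.106 against 0.246, edgeR). Gdf10 and Bmp3 were the only BMP or GDF ligands of the set with the B6 allele higher in all 7 mice, and Bmp4 went the other way.

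The alleles of the other ligands were not called in either fit. Bmp2, Bmp5, Bmp7 and Gdf5, the last a ligand of joint formation, had log2 fold changes of 0.08, 0.03, 0.06 and -0.25, and in each of them at least 1 mouse had the opposite direction. Bmp6, a ligand made by hypertrophic chondrocytes, had equal counts for both alleles in all 7 mice, from 84 per allele in mouse 7 to 294 in mouse 2. Equal counts in every mouse are what the estimation returns where no read tells the alleles apart, so its allele ratio was not measured. Gdf6, another joint ligand, had only 12.3 counts per mouse on average and 1 count in mouse 7, the fewest of any gene in the set, and its ratio is not precise enough to compare (log2 ratios from -0.56 to 1.58).

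Bmp1 (chr14:70474558-70520234) encodes a metalloprotease that trims procollagens and cleaves the BMP antagonist chordin, and it is not a BMP ligand despite its name. Counts of its B6 allele ran from 2983 to 8661 with a median of 6644, and those of its CAST allele from 2566 to 7696 with a median of 5943. The ratio was nearly the same in every mouse, between -0.22 in mouse 7 and -0.15 in mouse 1 on the log2 scale, with an SD of 0.025 (n = 7). The log2 fold change was -0.16. Without the block its FDR was 0.378, whereas the blocked fit gave 1.25e-40 by the likelihood-ratio test and 5.04e-05 by the quasi-likelihood test, all from edgeR.

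The TGF-β genes did not lean one way. Tgfb1 (chr7:25687002-25705077) had 543 to 1406 B6 counts with a median of 1035 and 333 to 1026 CAST counts with a median of 644. The B6 allele was higher in all 7 mice, with log2 ratios between -0.83 in mouse 4 and -0.45 in mouse 5. The log2 fold change reached -0.61 (FDR 8.06e-09, edgeR), the smallest FDR in the set, and 39.6% of its counts were from CAST.

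Tgfb3 (chr12:86056745-86079041) had 595 to 1492 B6 counts, median 1452, and 667 to 1720 CAST counts, median 1655. Here the CAST allele was higher in every mouse, by 0.15 to 0.23 on the log2 scale with a median of 0.18. The log2 fold change was 0.20 (FDR 0.154, edgeR), and with the mouse as a block the FDR was 5.78e-18. The call without the block was lost with one library size per mouse (FDR 0.208) and when mouse 1, 2, 4, 7 or 8 was left out (FDR 0.208 to 0.257), and its total was divided with another gene in all 7 mice. Tgfb2 (chr1:186622792-186705989) likewise had more CAST counts in all 7 mice, with log2 ratios from 0.06 in mouse 5 to 0.40 in mouse 7, and was called only with the block (FDR 0.00149 against 0.251, edgeR). Tgfb1 thus had the B6 allele higher, and Tgfb2 and Tgfb3 the CAST allele, in each of the 7 mice. Inhba, the subunit of activin A, varied from -1.70 in mouse 2 to 1.88 in mouse 7 on the log2 scale, with 72.0 counts per mouse on average, and was not called.

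**Figure D2:**
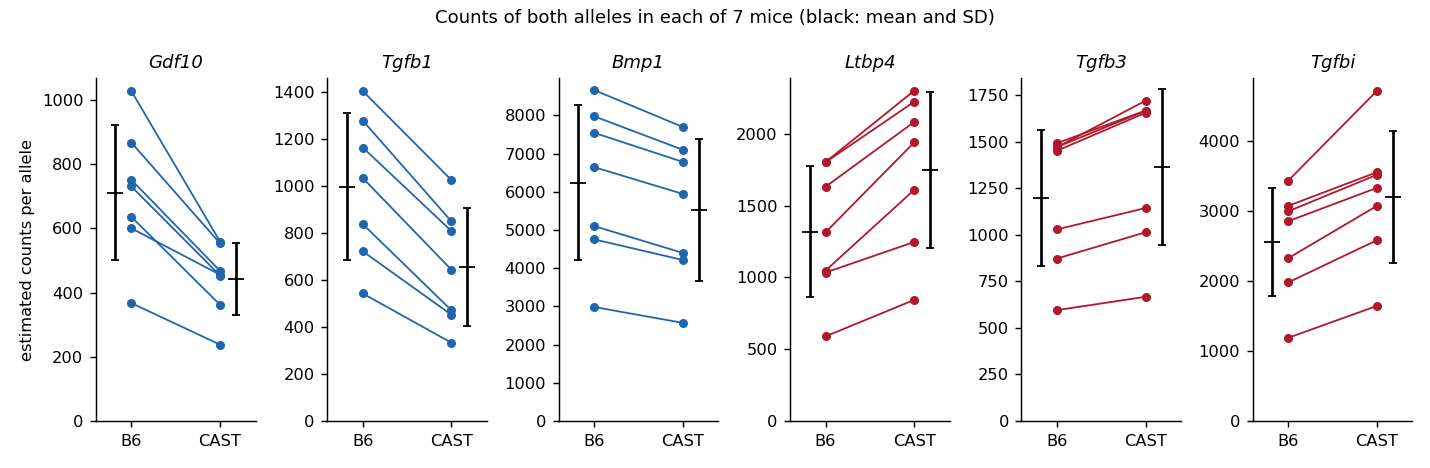
Estimated counts of the B6 and CAST allele of 6 genes, with a line joining both alleles of each of the 7 mice, and the mean and SD in black. Every line falls from B6 to CAST for Gdf10, Tgfb1 and Bmp1 and rises for Ltbp4, Tgfb3 and Tgfbi, while counts differ between mice by more than the alleles do.

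Of the 4 latent TGF-β binding proteins, Ltbp4 and Ltbp1 were called, both with the CAST allele higher. For comparison, 34.6% of all tested genes were called, 16.4% with CAST higher. Ltbp4 (chr7:27305136-27337692), which is also needed for elastic fibre assembly, had 589 to 1805 B6 counts, median 1315, and 844 to 2302 CAST counts, median 1942. The CAST allele was higher in all 7 mice, from 0.27 in mouse 8 to 0.62 in mouse 4 on the log2 scale. Its mean counts were 1751 ± 544 for CAST and 1318 ± 458 for B6 (SD, n = 7), with a log2 fold change of 0.44 (FDR 0.0141, edgeR's likelihood-ratio test). Ltbp4 lies 1600 kb from Tgfb1 on chromosome 7, and the alleles of these genes differed in opposite directions.

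Ltbp1 (chr17:75005568-75392512) had log2 ratios between 0.10 in mouse 7 and 0.30 in mouse 5, all with CAST higher, and a log2 fold change of 0.18 (FDR 0.184, edgeR). That call was close to the threshold and was lost with one library size per mouse (FDR 0.247) and when any mouse but mouse 7 was left out (FDR 0.220 to 0.348, edgeR), although with the mouse as a block its FDR was 3.07e-08. The total of Ltbp1 was divided with another gene in 6 mice. Ltbp3, the form most closely tied to skeletal growth, and Ltbp2, which does not bind latent TGF-β, had log2 fold changes of -0.06 and 0.06 and were not called in either fit. Ltbp2 had log2 ratios of 0.01 to 0.15 in 6 mice and -0.24 in mouse 4.

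Of the 10 receptors, Acvr1b and Acvr2b were called, both with the B6 allele higher, against 34.6% called and 18.3% with B6 higher of all tested genes. Acvr2b (chr9:119402118-119434995), a type II receptor for activins, had 9.50 to 85.3 B6 counts, median 42.2, and 4.80 to 28.3 CAST counts, median 14.5. The mice did not share a direction. The log2 ratio lay between -3.01 and -1.97 in mice 1, 2, 3 and 8, was 0.00 in mouse 7 and was 0.31 and 0.82, with CAST higher, in mice 5 and 4. The log2 fold change of -1.24 (FDR 0.00591, edgeR; 0.0823 with the mouse as a block) is therefore an average over mice of opposite direction, and the exact sign-flip permutation test gave p = 0.125. Equal counts, as in mouse 7, are also what the estimation returns where no read tells the alleles apart. The number of informative reads is unknown, and whether the swing between mice reflects expression was not tested.

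Acvr1b (chr15:101174067-101213684), a type I receptor for activins, had 190 to 515 B6 counts, median 344, and 172 to 444 CAST counts, median 307. Log2 ratios ran from -0.62 in mouse 3 to 0.08 in mouse 8, with B6 higher in 6 of 7 mice, and the log2 fold change was -0.18 (FDR 0.166, edgeR). The call was lost without rounding of the counts (FDR 0.212), without a filter on low counts, and without mouse 1, 3, 5 or 7 (FDR 0.221 to 0.472, edgeR). Tgfbr3 (chr5:107106570-107289629), or betaglycan, a co-receptor that presents TGF-β2 to the signalling receptors, had CAST higher in all 7 mice, between 0.02 in mouse 4 and 0.26 in mouse 3 on the log2 scale. It was called with the block (FDR 2.31e-05) and just missed the threshold without it (FDR 0.213, edgeR).

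The remaining 7 receptors were not called. Tgfbr2, the type II receptor of TGF-β, had 2682 ± 813 CAST and 2615 ± 877 B6 counts (SD, n = 7) and a log2 fold change of 0.07. Its type I partner Tgfbr1 had CAST higher in 6 mice and B6 higher in mouse 7, with log2 ratios from -0.53 to 0.57. The BMP receptors Bmpr1a, Bmpr1b, Bmpr2 and Acvr1 had log2 fold changes of 0.07, -0.20, 0.07 and 0.07. Acvr2a, which like Acvr2b binds activins, had log2 ratios from -1.02 in mouse 1 to 0.43 in mouse 8.

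Among the extracellular antagonists only Grem1 was called. Grem1 (chr2:113746164-113758646), or gremlin, binds BMP2, BMP4 and BMP7. It had 21.6 to 115 B6 counts, median 69.6, and 48.2 to 165 CAST counts, median 99.4. The log2 ratio was 0.66 to 1.99 in mice 1, 3, 4 and 7, was 0.00 in mice 2 and 5, whose alleles had equal counts, and was -0.91 in mouse 8. Equal counts can arise where no read tells the alleles apart, so how well the ratios of Grem1 were measured is unknown. The log2 fold change was 0.63 (FDR 0.0537, edgeR), the call was lost without mouse 4 (FDR 0.262) and with the block in the quasi-likelihood test (FDR 0.285), and the exact sign-flip permutation test gave p = 0.188. Nog, Chrd and Fst, the genes of noggin, chordin and follistatin, were not called (log2 fold changes -0.13, -0.11 and -0.07). Of these, Nog varied from -1.73 in mouse 7 to 0.82 in mouse 8.

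Of the 8 Smads, Smad1 was called and the CAST allele was higher, against 16.4% of all tested genes called with CAST higher. Smad1 (chr8:79338395-79399518), a transducer of BMP signals, had 156 to 390 B6 counts, median 357, and 203 to 502 CAST counts, median 381. CAST was higher in all 7 mice, although by only 0.02 in mouse 8 and at most 0.47 in mouse 5 on the log2 scale, and the log2 fold change was 0.23 (FDR 0.0930, edgeR). The call was lost without mouse 1, 5 or 7 (FDR 0.227 to 0.247, edgeR).

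Smad3 (chr9:63646767-63757994), the TGF-β transducer whose loss in mice accelerates chondrocyte hypertrophy, had 601 to 1802 B6 counts, median 1327, and 715 to 2013 CAST counts, median 1438. All 7 mice had CAST higher, from 0.08 in mouse 1 to 0.25 in mouse 7 on the log2 scale. The log2 fold change of 0.15 was called only with the mouse as a block (FDR 1.08e-09 against 0.288, edgeR). Smad6, the inhibitory Smad 195 kb from Smad3, had CAST higher in 6 of 7 mice and was likewise called only with the block (FDR 0.00365 against 0.307, edgeR). The other Smads, Smad2, Smad4, Smad5, Smad7 and Smad9, had log2 fold changes of 0.04, 0.10, 0.00, 0.04 and 0.17 and were not called in either fit.

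Of the 5 targets, 4 were called, all with the CAST allele higher, and Id3 was not. Of all tested genes, 34.6% were called and 16.4% had CAST higher, and of 8 tested targets outside the set 1 was called with CAST and 2 with B6 higher. The Id genes encode helix-loop-helix proteins that bind other transcription factors and block their DNA binding. Id1 (chr2:152736251-152737410) had 188 to 474 B6 counts, median 446, and 247 to 635 CAST counts, median 501. Its CAST allele was higher in all 7 mice, from 0.16 in mouse 2 to 0.74 in mouse 1 on the log2 scale, with a log2 fold change of 0.40 (FDR 0.112, edgeR). The call was lost without mouse 8 (FDR 0.252), and with the mouse as a block the FDR was 5.60e-07.

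Id2 (chr12:25093799-25097140) had log2 ratios of 0.16 to 0.32 in 6 mice and -0.02 in mouse 4, with 274 ± 91.7 CAST and 237 ± 77.7 B6 counts (SD, n = 7). Its log2 fold change was 0.23 (FDR 0.0782, edgeR). Id4 (chr13:48261228-48266026) had the largest difference in favour of CAST, with 15.9 to 72.3 B6 counts, median 40.1, and 46.5 to 113 CAST counts, median 76.6. Its ratio was positive in every mouse but ranged from 0.08 in mouse 3 to 2.79 in mouse 2 on the log2 scale, and the log2 fold change was 1.03 (FDR 0.000187, edgeR). Id3 (chr4:136143497-136145755) had 1880 ± 511 CAST and 1863 ± 558 B6 counts (SD, n = 7) and log2 ratios between -0.22 and 0.21.

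Tgfbi (chr13:56609523-56639562) encodes a secreted matrix protein that TGF-β induces. Its B6 allele had 1187 to 3430 counts, median 2850, and its CAST allele 1641 to 4711, median 3327. The CAST allele was higher in all 7 mice, from 0.21 in mouse 1 to 0.47 in mouse 7, with a log2 fold change of 0.36 (FDR 0.0102, edgeR's likelihood-ratio test). Smad5 begins 63.4 kb beyond the end of Tgfbi on chromosome 13, and its log2 ratios lay between -0.16 and 0.06.

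The spread of the ratios between mice differed widely among the genes. The counting SD used here is the SD of the log2 ratio that Poisson counts of the observed size would give. The SD over mice was more than 2 times the counting SD for 15 of the 45 genes and less than 1.5 times for 20. Bmp6, whose allele ratio was not measured, is among these 20. It was 3.85 times the counting SD for Grem1, 3.81 for Tgfbr1, 3.00 for Acvr2b, 2.99 for Tgfbr2 and 2.99 for Id4. By contrast it was 0.895 times for Bmp1, 0.966 times for Smad3 and 0.469 times for Tgfb3. A count that is divided between alleles by the fit is not a count of reads that tell the alleles apart, so a ratio below 1 does not mean that the error is below counting error. Where few reads tell the alleles apart, the true counting SD is larger than the one used here.

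**Figure D3:**
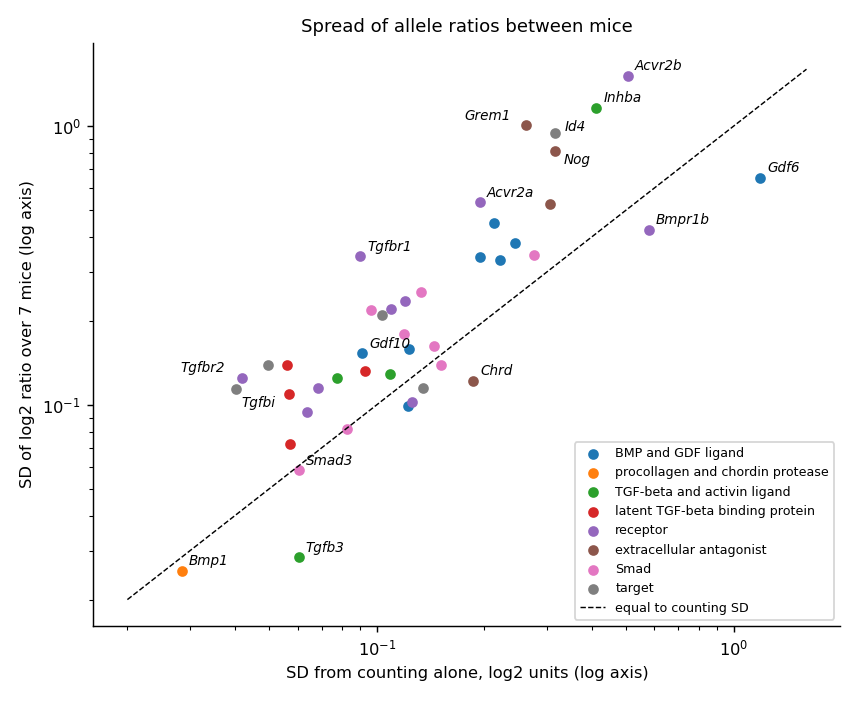
SD over 7 mice of the log2 allele ratio against the SD that counting alone would give, both on log axes, with 1 point per gene coloured by functional group, the dashed line marking equality and Bmp6 left out because its ratio was 0 in every mouse. Grem1, Tgfbr1, Acvr2b and Id4 lie far above the line, Bmp1 and Smad3 lie close to it and Tgfb3 lies below it.

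Levels of both alleles together were compared per length, as CPM per kilobase of annotated exon, after TMM scaling. Neighbours in the order of levels were compared within each group of genes through all exchanges of sign over the 7 mice (exact permutation, two-sided), adjusted over 37 pairs, and 27 pairs differed at an adjusted p under 0.05. The level of Bmp1 was 43.3 to 64.5, with a mean of 49.9 ± 7.49 (SD, n = 7). Among the BMP and GDF ligands, Gdf10 had the highest level at 8.48 ± 1.17, followed by Bmp7 at 5.63 ± 0.634 and Bmp6 at 4.24 ± 1.03, and each of the first 2 exceeded the next in all 7 mice (adjusted permutation p = 0.0241, the smallest possible here). Bmp6, Bmp3, Bmp4, Gdf5, Bmp5 and Bmp2 had means of 2.26 to 4.24, and no neighbours among these 6 differed beyond their spread. Gdf6 was far lower at 0.122 ± 0.0897.

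Of the TGF-β and activin ligands, Tgfb3 had a level of 28.6 ± 3.50, Tgfb1 of 12.3 ± 1.31, Tgfb2 of 5.08 ± 0.645 and Inhba of 0.433 ± 0.184 (SD, n = 7), and each differed from the next in all 7 mice. The log2 difference between Tgfb3 and Tgfb1 was 1.21, and it was 0.24 when the longest transcript was taken as the length. The latent binding proteins were ordered Ltbp4 (18.1 ± 3.61), Ltbp3 (12.8 ± 2.61), Ltbp1 (10.2 ± 1.02) and Ltbp2 (5.34 ± 1.11), again with every neighbour pair apart in all 7 mice. With the longest transcript as the length, the log2 difference between Ltbp4 and Ltbp3 was 0.10, against 0.50. The type II receptor Tgfbr2 led the receptors at 24.3 ± 0.932, ahead of Tgfbr3 at 13.0 ± 1.31 and Tgfbr1 at 6.88 ± 0.930. Acvr1b, Acvr1 and Bmpr1a, with means of 4.72 to 5.49, did not differ between neighbours beyond their spread, and Bmpr1b had the lowest receptor level at 0.182 ± 0.0418.

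The antagonists were low, from Nog at 2.32 ± 0.570 to Fst at 0.875 ± 0.168. Smad3 had the highest Smad level at 17.6 ± 1.81, followed by the shared Smad4 at 10.2 ± 0.780, and the BMP transducers Smad5, Smad1 and Smad9 had 6.95 ± 0.644, 3.94 ± 0.346 and 0.848 ± 0.0717. Smad3 exceeded Smad2, the other TGF-β transducer, at 1.89 ± 0.0849, and their ranges over mice did not overlap. The targets ranged widely, with Id3 at 80.2 ± 15.1, the highest level in the set, Tgfbi at 58.0 ± 8.90, Id1 at 29.5 ± 8.82, Id2 at 7.89 ± 0.696 and Id4 at 1.15 ± 0.124. All neighbours among the 5 targets differed in all 7 mice. With the longest transcript as the length, the mean log2 difference of 4 neighbour pairs turned sign, namely Acvr1b and Acvr1, Bmpr1a and Bmpr2, Nog and Chrd, and Smad7 and Smad1. Of these, Bmpr1a and Bmpr2, and Nog and Chrd, were among the pairs that differed (adjusted permutation p = 0.0428 for both). The permutation test measures the spread between mice and holds no error of the lengths, so the order of such neighbours depends on the length used.

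**Figure D4:**
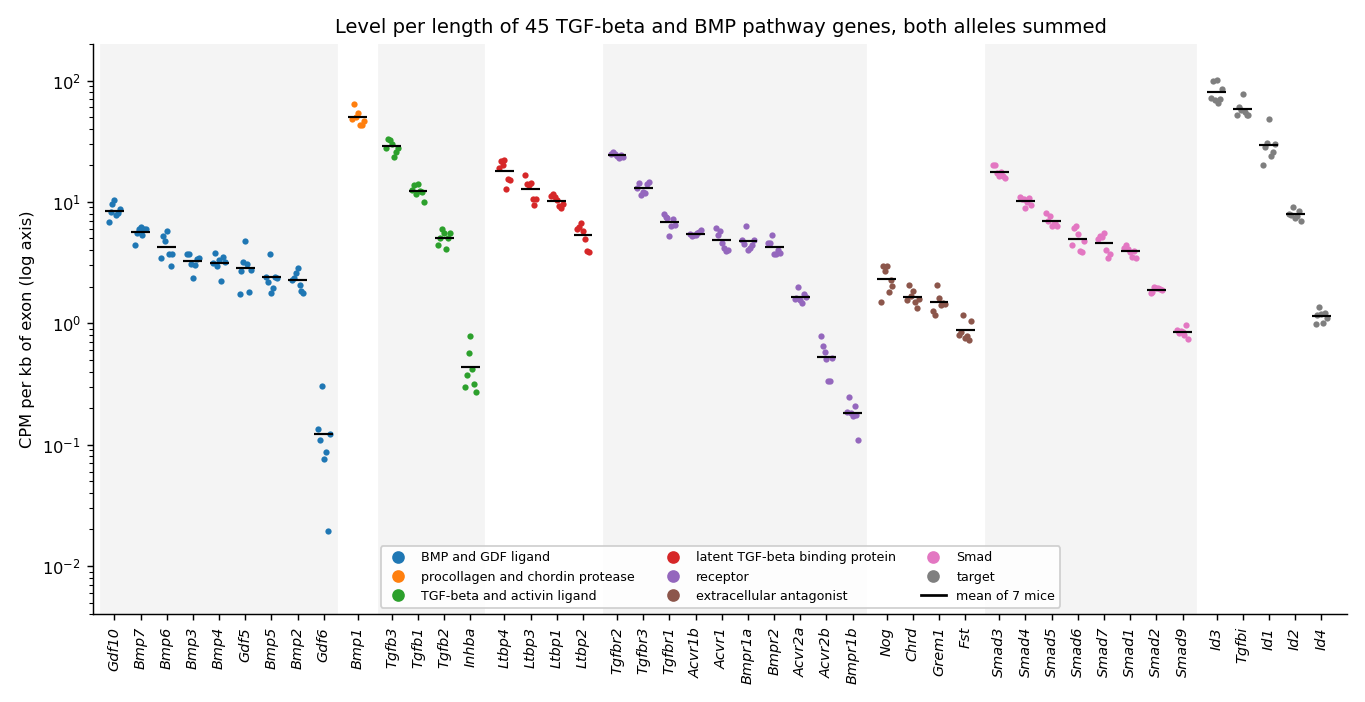
Level of both alleles together, in CPM per kilobase of exon on a log axis, for the 45 genes in their functional groups, ordered by mean within a group, with 1 point per mouse and black bars for the mean. Id3, Tgfbi and Bmp1 have the highest means (80.2, 58.0 and 49.9) and Gdf6 the lowest (0.122).

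Levels differed between mice about as much as those of other genes. The coefficient of variation over the 7 mice had a median of 14.9% over the pathway genes whose counts reached 10 in each mouse and of 13.5% over 15111 genes. It was smallest for Tgfbr2 (3.83%) and Acvr1b (3.89%) and largest for Gdf6 (73.4%), Inhba (42.5%) and Gdf5 (35.1%). The level of Id1 was 47.7 in mouse 4 and 20.2 to 30.3 in the others, and that of Tgfbi was 76.9 in mouse 4 and 51.9 to 60.3 in the others. Mouse 4 also had the highest summed level of the 9 chondrocyte markers, 106467 CPM against 59456 to 81641 in the other mice, and the part of cell composition in these levels was not tested.

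The levels of 44 pathway genes were set beside the summed levels of 9 lists of cell type markers over the 7 mice, 396 relations in all, and none passed an adjusted p of 0.05, while 61 had an unadjusted permutation p under 0.05. The 3 smallest P-values were those of Ltbp2 with endothelial markers (Pearson r = 0.94, exact permutation p = 0.000595, Spearman rho = 0.96, exact permutation p = 0.00278), of Tgfbi with chondrocyte markers (r = 0.97, p = 0.000992, rho = 0.89, p = 0.0123) and of Ltbp1 with osteoblast and osteocyte markers (r = 0.97, p = 0.000992, rho = 0.93, p = 0.00675). Each had an adjusted p of 0.131 for r and of 0.386 for rho. Without the 2 mice farthest from the median marker level, r was 0.93, 0.99 and 0.96. The summed erythroid markers were 7591 to 8975 CPM in mice 1, 2 and 3 and 11845 to 18620 in the others, and the mice with fewer erythroid counts were those in which the 45 genes held the larger share of counts. The 7S RNAs Rn7s1, Rn7s2 and Rn7sk, which are part of the totals, split the mice the same way. They held 15.5% to 18.5% of counts in mice 1, 2 and 3 and 19.6% to 23.8% in the others. The parts of marrow and of 7S RNA in the share of the 45 genes were not tested.

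Other genes of the same pathways, 73 listed by function and 72 found, were read from the same fit. Of the 67 tested, 20 were called (29.9%), 11 with CAST and 9 with B6 higher, again below the 34.6% of all tested genes. The background by direction was 16.4% with CAST and 18.3% with B6 higher, and the groups below are small. Among 12 tested genes of TGF-β activation and latency, 3 were called, all with CAST higher, against 34.6% called and 16.4% with CAST higher of all tested genes. These were Itgb8, Furin and Thbs1. Itgb8, the β subunit of an integrin that releases active TGF-β, had 82.0 ± 37.8 CAST and 42.5 ± 15.8 B6 counts (SD, n = 7). Its log2 fold change was 0.98 (FDR 0.000234, edgeR). The protease gene Furin had a log2 fold change of 0.27 (FDR 0.0496, edgeR), and Thbs1, the gene of thrombospondin 1, of 0.25 (FDR 0.0542, edgeR). The total of Furin was divided with another gene in 7 mice and that of Thbs1 in 4. Among 15 tested intracellular regulators, 5 were called with CAST and 1 with B6 higher, and Tgif1, a corepressor of Smads, had the smallest P-value of them (log2 fold change 0.42, FDR 0.00615, edgeR). Cd109, a TGF-β co-receptor that reduces signalling, had CAST higher in all 7 mice, by 0.24 to 0.51 on the log2 scale (log2 fold change 0.41, FDR 1.25e-05, edgeR).

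Of 11 tested further antagonists, 1 was called with CAST and 4 with B6 higher, against 16.4% and 18.3% of all tested genes. One of the latter, Chrdl1, lies on the X chromosome, of which a male has a single copy, and its 370 ± 161 counts (SD, n = 7) were assigned to B6 with at most 0.0388 counts per mouse on CAST. Of 12 tested further ligands, none was called with CAST and 2 with B6 higher, Lefty1 and Inha. Lefty1, an inhibitor of nodal, had 36.5 ± 10.1 B6 counts and 0.901 ± 1.21 CAST counts (SD, n = 7), and its total was divided with another gene in 3 mice. Inha, the inhibin α subunit, had 27.5 ± 12.4 B6 and 14.2 ± 7.04 CAST counts (SD, n = 7), with B6 higher in 5 mice and equal counts in the other 2 (log2 fold change -0.93, FDR 0.00516, edgeR). Such equal counts can arise where no read tells the alleles apart. Among 9 tested receptors and co-receptors Cd109 alone was called.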

How the data were processed

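RNA of growth plates from 7 mice was sequenced from rRNA-depleted stranded libraries. Reads were aligned by the authors (Bowtie, at most 3 mismatches) to the transcriptomes of both strains, built on mm10, and EMASE gave the deposited estimated counts per gene and allele, which are not normalized. Tool versions and the annotation release are not given in the sources used here. How a read is shared between alleles can pull a ratio towards equality, and the number of reads that tell alleles apart is unknown.

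Names and coordinates were taken from GENCODE M21 (GRCm38/mm10), which held 42462 of 43346 identifiers, and upstream bases from RefSeq (GRCm38.p6). Genes with an estimate above 1e-09 for at least 1 allele in each mouse were tested. Counts were rounded and fitted in edgeR 4.0.16 (limma 3.58.1, R 4.3.3) with TMM factors and estimateDisp, CAST against B6, through glmFit and glmLRT, the functions the study names, with Benjamini-Hochberg adjustment over all 20229 tested genes and a threshold of 0.20. A sign-flip permutation test of log2 ratios (0.5 added) was exact over the 7 mice. The steps were tested on simulated data. Python 3.11.15 with numpy 2.4.6, pandas 2.3.3 and matplotlib 3.10.9 was used.

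The alleles of 1 mouse share a library, as the deposited columns show. Deviations from the allele means correlated within a mouse by 0.107 at the lowest and 0.246 on average, and between mice by -0.04 on average and 0.265 at the highest, over 15111 genes. All 21 pairs of mice differed by more than sampling noise (chi-square per degree of freedom 14.4 to 96.4), so each mouse was counted as 1 replicate. The labels do not say more about how the mice relate, so P-values measure the spread between these mice. Totals were read as whole within 0.0001 and alleles as equal within 1e-06.

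The genes and lists were chosen with earlier results of these data known. Described in full were the genes called under the threshold, those with 1 direction in all 7 mice, the highest level in each functional group, genes too low or without allele information, and the 3 further pathway genes with the smallest P-values per direction. Furin, Thbs1 and the further members given by range were named after their values were seen. Alternatives run were DESeq2 1.42.0, the quasi-likelihood test of edgeR, one library size per mouse, the mouse as a block, other filters and gene sets, unrounded counts, an FDR under 0.05, other pseudocounts, lengths and scalings, and each mouse left out.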

Additional observations from a re-analysis of the deposited data

Results flagged for a closer look

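In 8 of 89 sets of 7 mouse values, 1 mouse lay far from the other 6 by Dixon's criterion, where chance gives about 1 in 20 sets, or 4.45 of 89. Of the 8, 4 were from mouse 4, 3 from mouse 3 and 1 from mouse 2.

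Among the levels (CPM per kilobase), Id1 was at 47.7 in mouse 4 and at 20.2 to 30.3 in the others, and Tgfbi was at 76.9 in mouse 4 and at 51.9 to 60.3 in the others. Mouse 3 had the high value for the ligands Bmp5 (3.74, others 1.79 to 2.41) and Gdf6 (0.307, others 0.0196 to 0.135) and for the BMP receptor Bmpr1a (6.30, others 3.99 to 4.85). Bmp5 shared reads with another gene in every mouse, and Gdf6 averaged 12.3 counts per mouse.

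Among the log2 allele ratios, Ltbp2 was at -0.24 in mouse 4, from 398 CAST and 471 B6 counts, and at 0.01 to 0.15 in the others. Fst was at -1.30 in mouse 4, from 18.6 CAST and 46.4 B6 counts, and at -0.18 to 0.33 in the others. Smad9 was at -0.56 in mouse 2, from 51.1 CAST and 75.9 B6 counts, and at 0.03 to 0.42 in the others. None of Ltbp2, Fst and Smad9 was called between alleles.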

How the results depend on the processing

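The count of 13 called genes lay between 9 and 14 under the quasi-likelihood test, DESeq2, one library size per mouse, both other filters, unrounded counts, autosomal genes only and whole-number totals only. The lowest of these, 9, was with whole-number totals only, a fit that held 28 of the 45 genes. It was 20 with the mouse as a replicate block, 23 with the block and one library size per mouse, and 6 at an FDR under 0.05, and it ranged from 10 to 13 with 1 mouse left out. The count of 20 further pathway genes was 12 at an FDR under 0.05 and 27 with the block, and ranged from 16 to 21 with 1 mouse left out. The 7001 called genes of all tested became 3497 when only the 10161 genes with whole-number totals were tested, and 6242 to 6780 with 1 mouse left out. Of the level pairs, 24 to 25 differed with 1 mouse left out, against 27. None of the 13 called genes turned direction under the alternatives run, and directions of single genes outside the 45 were followed for 6 further pathway genes only. Gdf10, Tgfb1, Ltbp4, Acvr2b, Id2, Id4 and Tgfbi were called in every fit that included them. Calls of Tgfb3, Ltbp1, Acvr1b, Grem1, Smad1 and Id1 were each lost under at least 1 alternative or left-out mouse, and the cause was not tested. In the block fits no other call was lost than that of Grem1 under the quasi-likelihood test (FDR 0.285, edgeR). Depth limits Gdf6, Bmpr1b, Acvr2b and Inhba most, since few counts stand behind their ratios, and allele ratios of genes that share reads with another gene or hold few informative reads may be off by an unknown amount.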
